A study of Sus scrofa with 6 samples.

Results

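Among the small RNA sequences counted in piglet jejunum, 31 of 533 were single-locus candidate miRNAs with no known seed. A sequence belonged here when it was identical to the mature sequence of exactly 1 predicted precursor in the study's candidate list. That list also had to name no miRNA sharing its seed. Beforehand 11 named candidates were set aside, 3 of which met this definition too, so the 31 are not all such candidates. The 11 included SSC13_1737, SSC18_6061 and SSC6_13802, which had the lowest p of the sequences tested below. Those set aside were not removed from the shares over all sequences. The others of the 533 were 166 single-locus candidates that shared a seed, 48 candidates listed at several precursors, 239 known miRNAs, 38 unnamed sequences and those 11. The precursors were predicted with miRDeep on the draft genome Sscrofa 9.2, that search was not repeated here, and the chromosome of a candidate is known here only from its temporary name (SSC14_3382 for chromosome 14). The 31 names lay on 12 chromosomes, with 8 on chromosome 7 and 6 on chromosome 3.

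Jejunal small RNA came from Duroc x Yorkshire x Landrace barrows. The weaning libraries W1, W4 and W7 came from piglets weaned 1, 4 or 7 d earlier, and the suckling libraries S1, S4 and S7 were made from unweaned piglets of the same days, aged 26, 29 and 32 d. Per day the paper took 4 weaned piglets, 1 from each of 4 litters, and 4 suckling piglets similarly. The pools thus drew on the same litters. For a library the RNA of 4 piglets was pooled in equal parts, so each day had 1 weaning and 1 suckling library and only the 3 weaning libraries against the 3 suckling libraries could be tested. That test measures the spread between pools taken on different days, and an exact test of 3 against 3 could not go below p = 0.1.

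A mature miRNA guides the silencing complex to messenger RNAs mainly by pairing of its seed, the bases near its 5′ end that are read here as bases 2 to 8. MiRNAs with the same seed are grouped as a family because they can pair with the same sites. A candidate whose seed no catalogued miRNA carries therefore cannot be placed in a family by this feature.

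The sequences below are those with at least 50 reads over the 6 libraries, printed 5′ to 3′ with the seed in capitals, because the comparison of weaning and suckling piglets turned on them.
SSC14_3382: uCGUGGAGcucacagucuagu
SSC5_12608: cCAUUCCUucgucugugcacu
SSCX_18665: uGAUAAUAcaaccugauaagu
SSC7_14993: uGGCCCAGcaacuccaug
SSC3_10070: aAUCUCUGcaggcaaauguga
SSC7_15957: uUGCCCGAgagcuuggaccg
SSC4_11618: gCGCCGCGcugggagcccugcgg
These 7 sequences carried 7 different seeds, and over all 31 candidates 31 distinct seeds were counted. None of the 239 known miRNA sequences in the count tables had one of them, which the way the candidates were chosen already implies.

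Known miRNAs in the same tables were nearly identical to several candidates outside the seed. With up to 4 mismatches over at least 15 aligned bases, and a shift of at most 3 bases, 7 of the 31 resembled a known miRNA, and those 7 held 1678 of the candidates' 2741 reads (61.2%). For 4 of them the alignment is shown by the known sequence, also with its seed in capitals, so that it can be read against the candidate above.
miR-151-5p: uCGAGGAGcucacagucuagu
miR-374a-5p: uUAUAAUAcaaccugauaagug
miR-194a: uGUAACAGcaacuccaugugg
miR-216-1/miR-216-2: uAAUCUCAgcuggcaacugugag
Positions are counted from the 5′ end of the candidate, the known miRNA's base comes first and the candidate's last. SSC14_3382 differed from miR-151-5p, a miRNA hosted by an intron of PTK2 in human, by A4U alone over 21 bases. SSCX_18665 differed from miR-374a-5p by U2G alone over 21 bases. SSC7_14993, the shortest of the 7 at 18 bases, differed from miR-194a, an abundant miRNA of the intestinal epithelium, by U3G, A4C and A5C. SSC3_10070 started 1 base downstream of miR-216, a miRNA known from the pancreas, and differed from it by A7U, U10A and C16A over 21 bases. A mismatch inside the seed follows from the rule that chose the candidates, unless the candidate starts at another base. Outside the seed no mismatch was left in the first 3 of these, over 21, 21 and 18 aligned bases.

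Another 3 candidates, with fewer reads, also resembled a known miRNA, and 2 of them are shown with the partner that has not been printed.
SSCX_18313: uUACAAUAcaaccugauaagu
SSC3_10456: uCUUGGGGcccgcacucucgc
miR-1343: cUCCUGGGgcccgcacucucgc
SSCX_18313 differed from miR-374a-5p by U4C alone, so that it and SSCX_18665, the only pair of candidates alike to each other, differed from one another at 2 of 21 bases. SSC3_10456 started 1 base downstream of miR-1343 and differed from it by C3U alone. The weakest match was SSC3_10479, with 4 mismatches over 15 bases to miR-28-5p. The remaining 24 candidates had at least 6 mismatches to every known miRNA of the tables in the best such alignment, among them SSC5_12608, SSC7_15957 and SSC4_11618. With up to 4 mismatches, 22.6% of the 31 candidates and 30 of the 166 candidates that share a seed (18.1%) resembled a known miRNA. A single mismatch or none was found for 4 of the 31 candidates (12.9%) and for 6 of the 166 candidates that share a seed (3.61%). These shares were not tested.

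The candidates were rare. They took between 0.00715% of the reads of a library (S4, 380 reads, 95% Wilson interval 0.00647 to 0.00791%) and 0.0125% (W7, 554 reads, 0.0115 to 0.0136%), out of library totals of 4441416 to 5373146 reads. The 2 most abundant held 64.5% of the candidates' reads, and the 7 with at least 50 reads held 86.5%. Of the others 6 had 20 to 49 reads and 18 had 5 to 19. The median candidate had 15 reads over the 6 libraries, beside 11 for the candidates that share a seed and 1995 for the known miRNAs. Known miRNAs were named only from 20 reads on, a minimum that the candidates did not have and that raises their median.

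**Figure D1:**
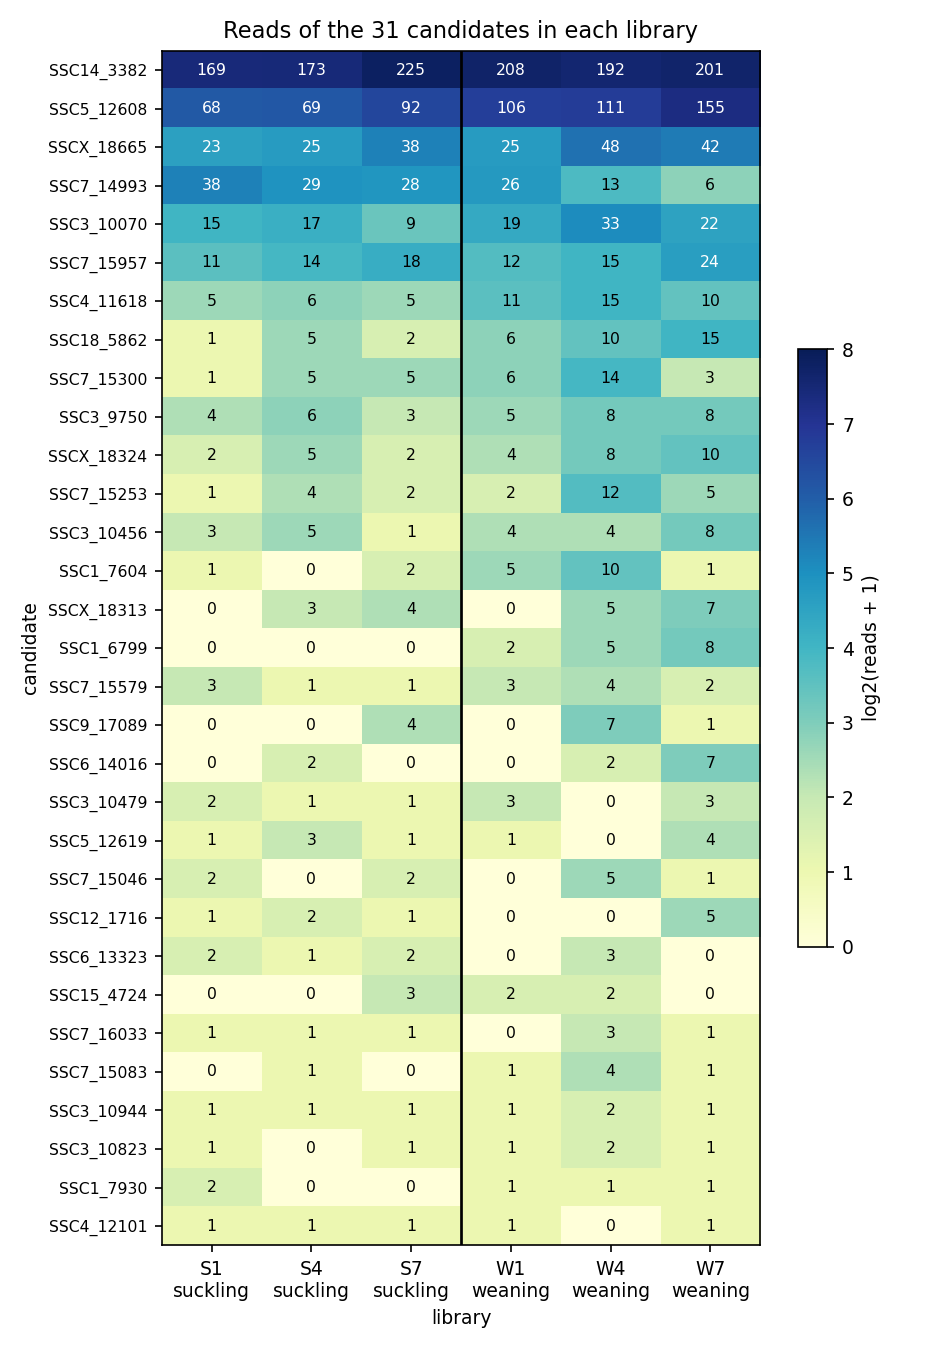
Reads of each of the 31 candidates (rows, by falling total) in the 3 suckling and the 3 weaning libraries (columns), with the colour giving log2(reads + 1). The 2 top rows hold 64.5% of all reads, and most entries of the lower 18 rows lie between 0 and 5 reads.

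Not every candidate was found in every library. At least 1 read was present in every library for 15 of the 31 candidates, in 5 libraries for 6, in 4 for 6 and in 3 for 4. Every library also held 59 of the 166 candidates that share a seed. The same was true of 238 of the 239 known miRNAs, which were named only from 20 reads on. Between 24 (W1 and S4) and 29 (W7) candidates were found per library, and in all 6 libraries at least 2 reads were reached by 9. Thinned to the smallest total, 14.0 candidates would be expected in every library. Of the 18 candidates under 20 reads, 30 of 108 entries were 0, and no entry was above 10 reads. A count of 0 in a library allows a level of up to 0.558 CPM (reads per 1000000 of the library total) in S7, the deepest library, and 0.675 in W7, the shallowest, for counting error only.

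Sequence features that the rule did not use were compared with those of the other lists. At least 70% G and C was found in 7 of 31 (22.6%), in 18.7% of the candidates that share a seed and in 3.35% of the known miRNAs. These 7 had 114 reads in all, and the highest, SSC4_11618, had 52. A length of 20 to 23 nt was found in 24 of 31 (77.4%), beside 65.1% of the candidates that share a seed and 92.1% of the known miRNAs. The first base was U, the usual first base of a mature miRNA, in 17 (54.8%), beside 42.2% and 48.1% in the same order. These shares describe the lists and were not tested.

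Weaning and suckling libraries differed in composition as a whole, which bears on every level below. Between a weaning library and the suckling library of its day, the median sequence with at least 50 reads in the pair was higher by a log2 ratio of 0.28 on day 1, 0.83 on day 4 and 0.21 on day 7 when scaled to the library total. The 3 most abundant sequences took 67.5 to 72.8% of a suckling library and 53.5 to 65.8% of a weaning library. With TMM scaling (trimmed mean of M-values, which aligns the bulk of sequences) these medians were -0.04, -0.01 and -0.06. Levels below are given in CPM and on the TMM scale, where the TMM size takes the place of the library total. All marker miRNAs were found: the epithelial ones (miR-192, miR-194 and miR-215) took 54.1 to 57.8% of the suckling and 22.4 to 47.7% of the weaning libraries, those of smooth muscle and stroma (miR-143 and miR-145) 15.9 to 20.5% and 20.2 to 33.0%, those of leukocytes 0.235 to 0.410% and 0.312 to 0.640%, and those of red cells 0.0451 to 0.0604% and 0.0455 to 0.0622%. Their part in the values of the candidates was not tested.

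The summed level of the 31 candidates was 79.9, 71.5 and 84.7 CPM in S1, S4 and S7 and 97.9, 119.5 and 124.7 CPM in W1, W4 and W7. All 3 weaning libraries lay above all 3 suckling libraries, at 114.0 ± 14.2 against 78.7 ± 6.66 CPM (mean ± SD, n = 3). On the TMM scale the same sums were 96.6, 89.7 and 91.9 in the suckling and 94.5, 83.9 and 111.9 in the weaning libraries. There the groups overlapped, at 96.7 ± 14.1 against 92.7 ± 3.53.

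None of the candidates was called in weaning against suckling libraries. In edgeR's quasi-likelihood test with Benjamini-Hochberg adjustment, 290 sequences that reached 10 reads in 3 or more libraries were tested, 7 of them candidates. At an adjusted p under 0.05, 0 of the 7 and 0 of the 290 (0%) were called. At an unadjusted p under 0.05 there were 2 of the 7 and 44 of the 290 (15.2%), but 1 of the 2, SSC4_11618, entered the test only through the weaning libraries in which it was higher, so the count is not read against that share. DESeq2 called none of the 7 and 10 of the 290.

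SSC7_14993, the sequence alike to miR-194a, had the largest log2 fold change of the 7 tested candidates with TMM, while scaled to the library total that of SSC4_11618 was larger (1.31 against -0.94). It had 38, 29 and 28 reads in S1, S4 and S7 and 26, 13 and 6 reads in W1, W4 and W7. W7 was lowest and S1 highest. Its levels were 8.46, 5.46 and 5.21 CPM in the suckling and 5.59, 2.89 and 1.35 CPM in the weaning libraries, so that W1 lay above S4 and S7. On the TMM scale it was 10.2, 6.84 and 5.66 against 5.40, 2.03 and 1.21, and the groups did not overlap. The log2 fold change of weaning over suckling was -1.40 (SE 0.51, edgeR adjusted p = 0.256). Leaving out W1 gave -2.12 with an adjusted p of 0.0472, a call that no other alternative gave, and calls over all sequences rose with it, to 12 of 286 (4.2%). The ratios of the days, scaled to the library total, were -0.60 (95% interval -1.38 to 0.16) on day 1, -0.92 (-1.99 to 0.07) on day 4 and -1.95 (-3.51 to -0.65) on day 7 on the log2 scale. With TMM they were -0.92, -1.76 and -2.22, and all 3 intervals lay below 0.

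MiR-194a itself, with 204120 reads, showed values in the same direction. It stood at 10076, 7941 and 8878 CPM in S1, S4 and S7 and at 6857, 4457 and 3830 CPM in W1, W4 and W7, with a log2 fold change of -1.27 (SE 0.29, edgeR adjusted p = 0.132). As a share of both sequences, SSC7_14993 took 0.0839, 0.0687 and 0.0587% in the suckling libraries and 0.0815, 0.0647 and 0.0353% in the weaning libraries. The pooled shares were 0.0702% (95% Wilson interval 0.0575 to 0.0858%) and 0.0652% (0.0487 to 0.0872%), and these intervals overlapped. They cover counting error only and leave out the spread between libraries. In tissue RNA, fewer epithelial cells and less of a miRNA per cell cannot be told apart.

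SSC14_3382, the sequence alike to miR-151-5p, was the most abundant candidate with 1168 reads. Counts were 169, 173 and 225 in S1, S4 and S7 and 208, 192 and 201 in W1, W4 and W7. Levels of 37.6, 32.6 and 41.9 CPM in the suckling and 44.7, 42.6 and 45.3 CPM in the weaning libraries did not overlap, by a narrow margin between S7 and W4. On the TMM scale the order turned, with 45.5, 40.8 and 45.4 in the suckling and 43.2, 29.9 and 40.6 in the weaning libraries, and the groups overlapped. The log2 fold change was -0.21 (SE 0.18, edgeR adjusted p = 0.695) with TMM and 0.24 when scaled to the library total (adjusted p = 0.328). Beside miR-151-5p its share of both ran from 3.26% in W4 (2.83 to 3.74%) to 4.26% in S7 (3.75 to 4.84%), with 3.98% (3.67 to 4.31%) over the suckling and 3.59% (3.32 to 3.89%) over the weaning libraries. MiR-151-5p had a log2 fold change of -0.08 (SE 0.11, edgeR adjusted p = 0.828).

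SSC5_12608, which resembled no known miRNA of the tables, had 601 reads. It had 68, 69 and 92 reads in S1, S4 and S7 and 106, 111 and 155 reads in W1, W4 and W7, and W7 was the highest of all. In CPM the suckling libraries (15.1, 13.0 and 17.1) lay below the weaning libraries (22.8, 24.6 and 34.9). On the TMM scale W4 (17.3) fell below S1 (18.3) and S7 (18.6), while W1 (22.0) and W7 (31.3) stayed above all 3 suckling libraries. The log2 fold change was 0.41 (SE 0.24, edgeR adjusted p = 0.530). On day 7 the log2 ratio was 1.03 (95% interval 0.65 to 1.42) scaled to the library total and 0.75 (0.37 to 1.14) with TMM.

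SSC3_10070, the sequence shifted by 1 base from miR-216, had 15, 17 and 9 reads in S1, S4 and S7 and 19, 33 and 22 reads in W1, W4 and W7. It was lowest in S7 and highest in W4. The levels were 3.34, 3.20 and 1.68 CPM against 4.09, 7.33 and 4.95 CPM, with no overlap, but on the TMM scale S1 (4.04) and S4 (4.01) exceeded W1 (3.95). The log2 fold change was 0.49 (SE 0.33, edgeR adjusted p = 0.608). MiR-216 had fewer reads than its candidate in every library but S7, with 5, 6 and 10 reads in the suckling and 15, 15 and 16 reads in the weaning libraries. SSC3_10070 took 66.1% (53.7 to 76.7%) of both in the suckling and 61.7% (52.7 to 69.9%) in the weaning libraries.

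SSCX_18665, the sequence alike to miR-374a-5p, had 23, 25 and 38 reads in S1, S4 and S7 and 25, 48 and 42 reads in W1, W4 and W7. In CPM W1 (5.38) lay among the suckling libraries and on the TMM scale (5.19) below them, and the groups overlapped on both scales. The log2 fold change was 0.10 (SE 0.25, edgeR adjusted p = 0.896). Its share of the reads of both sequences was 5.26% (4.28 to 6.45%) in the suckling and 5.92% (4.95 to 7.05%) in the weaning libraries. SSCX_18313, the other sequence 1 base from miR-374a-5p, had 0, 3 and 4 reads in S1, S4 and S7 and 0, 5 and 7 in W1, W4 and W7. No read of it was found on day 1 in either group.

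**Figure D2:**
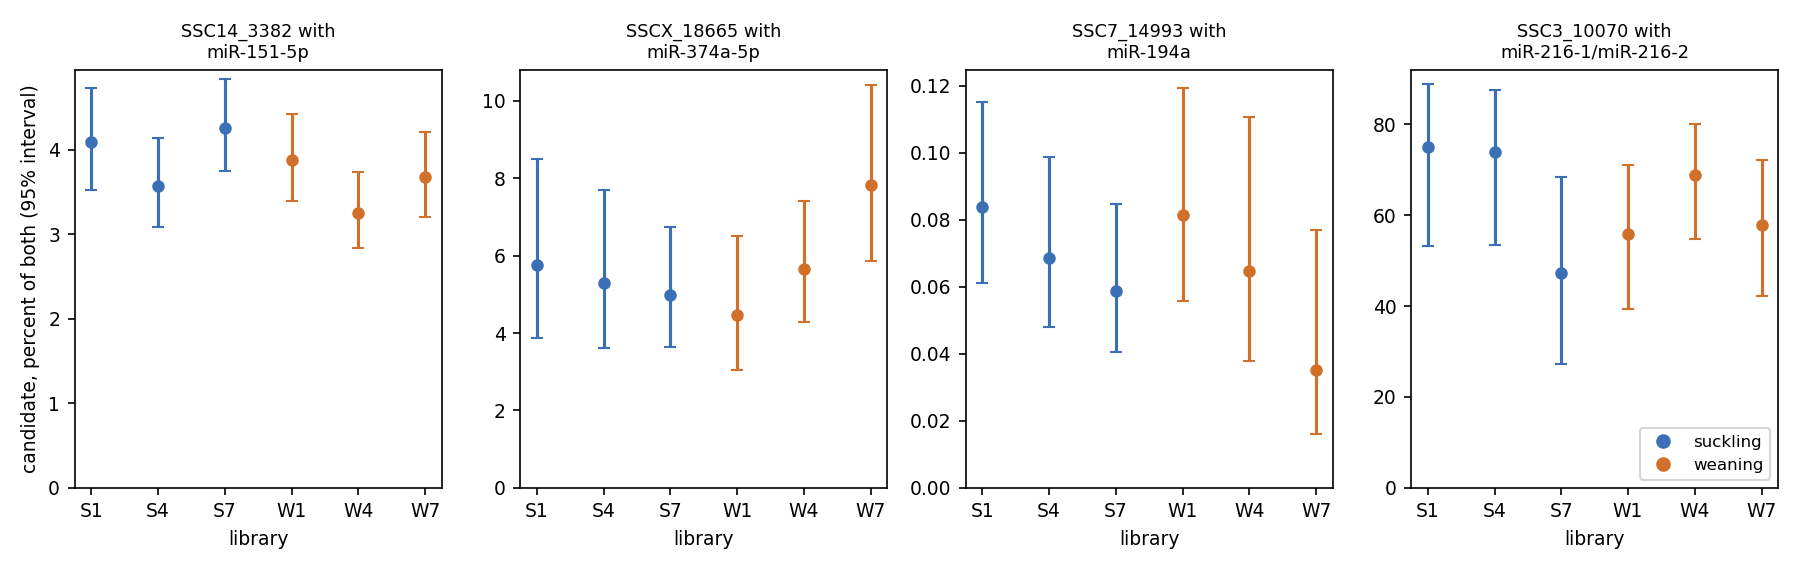
Reads of 4 candidates as a percentage of the reads of the candidate and of the known miRNA it resembles, by library, with 95% Wilson intervals for counting error. On each day the interval of the weaning library overlaps that of the suckling library for all 4, and the pooled shares run from near 0.07% beside miR-194a to over 60% beside miR-216.

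SSC7_15957 had 11, 14 and 18 reads in S1, S4 and S7 and 12, 15 and 24 reads in W1, W4 and W7. The groups overlapped on both scales, with a log2 fold change of -0.05 (SE 0.34, edgeR adjusted p = 0.976) with TMM and 0.41 when scaled to the library total. SSC4_11618, whose sequence is 87.0% G and C, had 5, 6 and 5 reads in the suckling and 11, 15 and 10 reads in the weaning libraries. Its levels of 1.11, 1.13 and 0.931 CPM lay below 2.37, 3.33 and 2.25 CPM, and on the TMM scale 1.35, 1.42 and 1.01 lay below 2.28, 2.34 and 2.02. The log2 fold change was 0.82 (SE 0.27, edgeR adjusted p = 0.312). It reached 10 reads only in the weaning libraries, so it entered the test only by being higher there, and it left the test when any weaning library was left out.

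**Figure D3:**
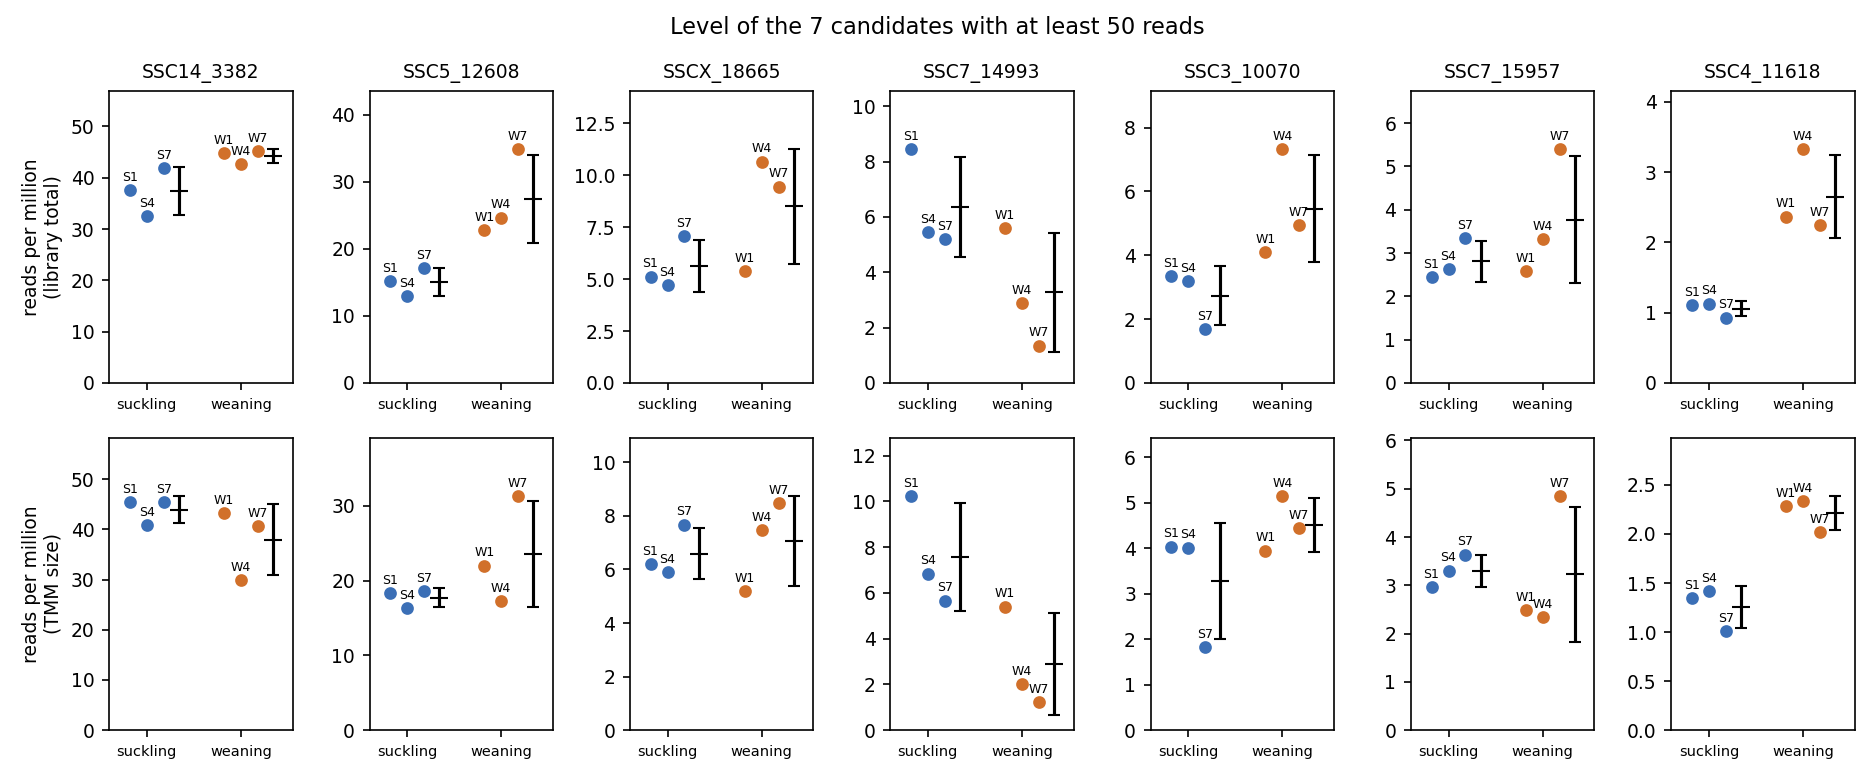
Level of the 7 candidates with at least 50 reads in each library, in CPM of the library total (upper row) and on the TMM scale (lower row), with points for libraries and a bar for the mean ± SD of each group (n = 3). SSC4_11618 is higher in all weaning libraries on both scales, and SSC7_14993 is lower in all of them on the TMM scale only. SSC14_3382 is higher in all of them in CPM, while on the TMM scale its weaning mean is lower and the groups overlap.

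The next 6 candidates had 20 to 49 reads. SSC18_5862, whose nearest known miRNA was miR-183 with 6 mismatches over 23 bases, had 1, 5 and 2 reads in S1, S4 and S7 and 6, 10 and 15 reads in W1, W4 and W7.
SSC18_5862: uUAUGGCCcuucgguaauucacug
Its weaning libraries lay above its suckling libraries in CPM (1.29, 2.22 and 3.38 against 0.223, 0.941 and 0.372) and on the TMM scale. With 8 suckling reads in all, SSC18_5862 reached 20 reads only through the weaning libraries. In the other 5 of this size the groups overlapped. SSC7_15300 had 1, 5 and 5 reads in S1, S4 and S7 and 6, 14 and 3 in W1, W4 and W7. SSC3_9750 had 4, 6 and 3 reads in the suckling and 5, 8 and 8 in the weaning libraries. In the first, W7 lay below S4 and S7, and in the second W1 lay below S4 in CPM. SSCX_18324 had 2, 5 and 2 suckling and 4, 8 and 10 weaning reads. SSC7_15253 had 1, 4 and 2 suckling and 2, 12 and 5 weaning reads. In both, W4 and W7 held the most reads, while W1 stood within the suckling range. SSC3_10456, the sequence shifted from miR-1343, had 3, 5 and 1 suckling and 4, 4 and 8 weaning reads, and its share of both was 10.5% (5.60 to 18.7%) in the suckling and 11.9% (7.43 to 18.4%) in the weaning libraries.

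Of the 13 candidates with at least 20 reads, 5 had all 3 weaning libraries above all 3 suckling libraries in CPM (SSC14_3382, SSC5_12608, SSC3_10070, SSC4_11618 and SSC18_5862), beside 39.9% of 336 sequences. None had all weaning libraries below, beside 2.98%. On the TMM scale 2 were above (SSC4_11618 and SSC18_5862), beside 7.44% of all sequences, and 1 was below (SSC7_14993), beside 8.93%. The counts on the TMM scale rest on 1 or 2 candidates. SSC4_11618 had 16 suckling and 36 weaning reads, and SSC18_5862 had 8 and 31. Only their weaning reads reached 20 on their own. They are among the 5 above in CPM and the 2 above on the TMM scale. Neither count is therefore read against its share. Without W1, 9 candidates lay above and 1 below in CPM, beside 60.7% and 4.17% of all sequences. Without S4, 9 lay above and 0 below, beside 46.4% and 3.57%. Both counts of 9 include SSC4_11618 and SSC18_5862 and are not read against those shares either.

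Day by day, few candidates had the 50 reads in the pair of libraries that a ratio was counted on. On day 1, 0 of 3 were at least 2-fold higher in the weaning library and 0 of 3 at least 2-fold lower, beside 6.11% and 2.62% of 229 sequences. On day 4, 2 of 4 were higher (SSCX_18665, log2 ratio 1.18, interval 0.45 to 1.94, and SSC3_10070, 1.20, 0.31 to 2.13) and 0 lower, beside 33.6% and 2.87% of 244. With 33 reads in W4 and 17 in S4, SSC3_10070 reached the 50 reads only through W4. The 2 of 4 are therefore not read against that share. On day 7, 1 of 3 was higher (SSC5_12608) and 0 lower, beside 6.75% and 3.8% of 237. With TMM none of the candidates with 50 reads in the pair reached 2-fold in either direction on any day, beside 2.18% higher and 3.93% lower on day 1, 4.1% and 9.02% on day 4, and 3.38% and 8.02% on day 7. The 2 day-4 ratios were then 0.34 and 0.36. Below 50 reads in the pair, SSC7_14993 on days 4 and 7 and SSC3_10070 on day 7 (1.29) did reach 2-fold with TMM. Each ratio rests on 1 library of each kind and has no replicate check, and its interval covers counting error only.

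**Figure D4:**
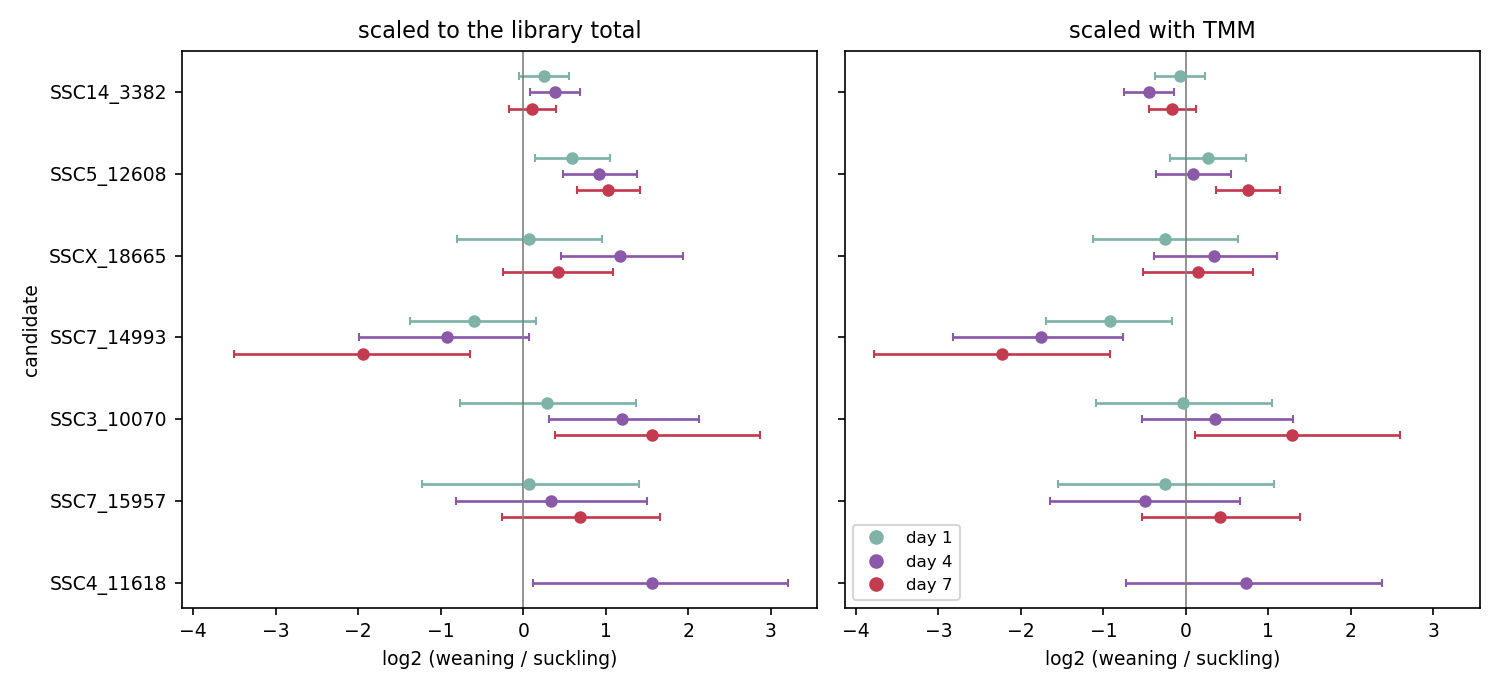
Log2 ratio of the weaning to the suckling library of the same day for candidates with at least 20 reads in the pair, with 95% exact conditional binomial intervals for counting error, scaled to the library total (left) and with TMM (right). The ratios of SSC7_14993 are below 0 on all 3 days on both scales, and those of SSC5_12608 are above 0 on all 3, with an interval clear of 0 on the TMM scale on day 7 only.

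The 18 candidates with 5 to 19 reads were described by their counts. SSC1_6799 was the only one of the 31 with no read in any suckling library.
SSC1_6799: gCAUGAUGauuacugacu
It had 0, 0 and 0 reads in S1, S4 and S7 and 2, 5 and 8 reads in W1, W4 and W7. It is named for those zeros, a pattern that 20 of the 533 sequences (3.75%) had, and no fold is given. No candidate was found in suckling libraries and absent from all weaning libraries. The share of all sequences with that pattern is not given, so this 0 is not read as a result about the candidates. SSC3_10479, the weak match to miR-28-5p, had 2, 1 and 1 suckling and 3, 0 and 3 weaning reads. SSC1_7604 had its highest count in W4 (10 reads), with 1, 0 and 2 suckling reads and 5 and 1 reads in W1 and W7, and it was chosen after its values were seen.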

How the data were processed

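Small RNA of pooled jejunum was counted in 6 libraries. Adapters and low-quality bases were trimmed by the authors, who kept fragments of 15 to 32 nt, aligned them without mismatches to Sscrofa 9.2 (the submitters' processing notes name Bowtie 0.12.2), searched miRBase and Rfam, and ran miRDeep for candidates. The deposited values are raw counts per sequence. For the step from alignments to counts, and for how reads of near-identical sequences were divided, details were not given in the sources used here. FPKM values and the Student's test of the study were not repeated.

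Names came from the study's lists, for candidates by identical sequence and for known miRNAs by the same 6 counts in a row of at least 20 reads. Where a sequence stood on several rows, the highest count was used once. The 3 weaning libraries were compared with the 3 suckling libraries in edgeR (4.0.16, TMM, quasi-likelihood, R 4.3.3) over all sequences that reached 10 reads in 3 or more libraries, with DESeq2 (1.42.0) as an alternative. Fits were also run on simulated counts with a common spread for all sequences, unlike the data, and how many changes they recovered is not given here. Shares, intervals and alignments were computed in Python 3.11.15. The labels say that libraries were taken on the same days, so day pairs them. The correlation of same-day deviations was 0.037, -0.197 and -0.0035 for days 1, 4 and 7 over 290 sequences. Candidates with at least 50 reads, and those with 20 to 49, were given with every count, and rarer ones by ranges or where alike to a known miRNA or absent from a group. The candidates, marker lists and tests were chosen with earlier results of these data known. Alternatives covered scaling, filters, the read minimum, the fold, rows, day and each library. Totals were 4492667, 4649143, 5312358, 4503899, 5373146 and 4441416 reads in S1, W1, S4, W4, S7 and W7. Intervals cover counting error only, since PCR reads without molecular identifiers are not independent molecules.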

Additional observations from a re-analysis of the deposited data

How the results depend on the processing

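The number of candidates called in weaning against suckling libraries stayed 0 under the other scalings, filters, DESeq2 and the sum of rows, and leaving out each library gave 0 to 1, with the 1 without W1, where 12 of 286 sequences were called. The day as a replicate block gave 0 too and changed no call. Without a filter the lowest adjusted p of a candidate was 0.290 (SSC1_6799). The number whose groups did not overlap (5) was 3 with TMM, 3 with the total without the 3 most abundant sequences, and 5 to 10 when 1 library was left out, beside 46.7 to 64.9% of all sequences (42.9% with none left out). SSC4_11618 and SSC18_5862 are among them, so these counts are not read against those shares. The 2-fold counts of day 4 (2) and day 7 (1) were 0 with TMM, with size factors from DESeq2 and without those 3 sequences in the total. At 100 reads in the pair day 4 gave 0 of 2, and at 20 reads day 7 gave 3 of 6, with 2 higher and 1 lower. At a fold of 1.5 day 1 gave 2 of 3, with 1 higher and 1 lower. Shares over all sequences at these settings are not given, so these counts are not read as a result about the candidates. At least 2 reads were reached in every library by 9 candidates in place of 15. Likeness held for 4 candidates in place of 7 at 2 mismatches, and for 4 with no shift. The ratio of summed levels, weaning over suckling, was 1.45 in CPM and 1.04 with TMM, an alternative added after seeing the data. Directions turned for SSC14_3382 (0.24 scaled to the library total), for SSCX_18665 (0.10, between -0.037 and 0.32 with 1 library left out) and for SSC7_15957 (-0.054, which was 0.41 scaled to the library total, 0.0022 without the 3 most abundant, 0.030 with no filter, and -0.44 to 0.21 with 1 library left out). The cause was not tested. Few reads limit what can be said of the 18 candidates under 20 reads.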
